A study of Homo sapiens with 6 samples.

Results

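The mitochondrial ribosomal protein genes were taken as the protein-coding genes named MRPL or MRPS followed by a number, with or without a final A, B or C. The count tables held 78 such genes among 60669 genes, and 77 of them were among the 17575 genes that passed the count filter. The counts came from total RNA of 293T cells, a transformed line of human embryonic kidney origin, sequenced to identify genes that change when MLL2 or PRMT1 is depleted. There were 2 libraries in each of 3 groups: control cells with the genotype WT and the treatment None, cells in which CRISPR/Cas9 editing had knocked out MLL2, and cells in which PRMT1 was knocked down with an shRNA. PRMT1 is the main enzyme for asymmetric dimethylation of arginine, and MLL2, a name used for both KMT2B and KMT2D, is a histone H3 lysine 4 methyltransferase. The alignments behind the tables carry the tags WTshNT (control), MKshNT (knockout) and WTshPR (knockdown) in the file headers. The labels do not explain these tags, so whether control and knockout cells also received a hairpin is not known. They do not say either whether the knockout is 1 clone, so traits of a clone and effects of the knockout cannot be told apart. The libraries of a group are described as biological replicates, and the p-values measure the spread between them.

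Mitochondria keep a ribosome of their own, the mitoribosome, which makes only the few respiratory chain proteins that mitochondrial DNA encodes. Its large and small subunits are built on RNA from mitochondrial DNA, but all of their proteins are encoded in the nucleus, made in the cytosol and imported. Some of these proteins descend from proteins of the bacterial ribosome, and the others were added in the evolution of mitochondria. By textbook assignment, 51 of the 78 genes encode proteins of the large subunit and 26 proteins of the small subunit. MRPS30 and MRPS18A sit in the large subunit in spite of their names, and MRPS36 was later assigned to the oxoglutarate dehydrogenase complex.

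Promoters of such genes are often rich in G and C and carry binding motifs of NRF1, of ETS family factors such as GABPA, and of YY1. Promoter windows of 300 bases, 250 before to 50 after the annotated start, were available from RefSeq (GRCh38.p14) for 69 members, which had 85 windows. The letters CCGGAAG, an ETS family core, were found on either strand in 38.8% of the members' windows against 10.3% of all 35116 windows. The YY1 letters AAGATGGCG were in 15.3% against 1.75%, and the NRF1 letters GCATGCGC in 7.06% against 3.05%. The motifs are not separate by construction: the ETS letters end in AAG, with which the YY1 letters begin, so 1 stretch can match both. A match describes letters in a window and is not a measured binding site. Printed here are the 150 bases before the start for members that fell or rose in the knockdown, with the ETS letters or their reverse complement CTTCCGG in capitals. MRPS10 rose and MRPS26 and MRPS31 fell with a match in this stretch, while MRPS15 fell and MRPL1 and MRPL19 rose with none of the 3 motifs there.
MRPS10, chr6:42217862-42218011, minus strand: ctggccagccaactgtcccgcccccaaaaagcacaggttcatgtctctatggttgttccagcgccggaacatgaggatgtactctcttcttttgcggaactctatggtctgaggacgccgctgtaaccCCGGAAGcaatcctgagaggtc
MRPS26, chr20:3045902-3046051, plus strand: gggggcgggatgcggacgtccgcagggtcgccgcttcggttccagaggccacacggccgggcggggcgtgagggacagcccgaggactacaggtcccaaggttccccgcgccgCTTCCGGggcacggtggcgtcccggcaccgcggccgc
MRPS31, chr13:40771191-40771340, minus strand: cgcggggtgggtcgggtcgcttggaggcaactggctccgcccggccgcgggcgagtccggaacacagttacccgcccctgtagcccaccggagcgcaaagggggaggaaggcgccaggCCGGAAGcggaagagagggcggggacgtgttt
MRPS15, chr1:36464385-36464534, minus strand: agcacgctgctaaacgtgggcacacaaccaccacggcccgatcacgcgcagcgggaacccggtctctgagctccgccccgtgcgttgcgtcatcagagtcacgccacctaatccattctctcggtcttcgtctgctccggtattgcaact
MRPL1, chr4:77862680-77862829, plus strand: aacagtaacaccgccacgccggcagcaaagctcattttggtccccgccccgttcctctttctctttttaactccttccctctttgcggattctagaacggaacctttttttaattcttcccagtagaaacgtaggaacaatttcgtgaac
MRPL19, chr2:75646633-75646782, plus strand: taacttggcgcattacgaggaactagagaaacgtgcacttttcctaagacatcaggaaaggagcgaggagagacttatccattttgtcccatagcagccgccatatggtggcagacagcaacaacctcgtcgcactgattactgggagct
The last sequence is the whole stretch between the starts of MRPL46 and MRPS11 in the count tables, 62 bases that separate 2 members transcribed in opposite directions.
MRPL46 and MRPS11, chr15:88467391-88467452, minus strand: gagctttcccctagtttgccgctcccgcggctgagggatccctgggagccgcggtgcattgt
The falls of MRPS26 and MRPS31 were not called with the length correction described further on (-0.17 each).

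The libraries held 20061471 to 22351532 counts in genes. PRMT1 itself had 306 and 319 CPM in control (counts scaled to a common library size, here the TMM-adjusted total), 406 and 425 in the knockout, and 38.2 and 34.9 in the knockdown, a log2 change of -3.10 ± 0.09 (SE) in the knockdown with an edgeR adjusted p of 5.5e-16. In the knockout KMT2B changed by 0.02 ± 0.25 and KMT2D by 0.19 ± 0.26, neither called. Of 10 genes known from 293T cells, VIM, KRT18, NEFL, LIN28B and IGF2BP1 were at 85.5 CPM or more in both control libraries. NEFM had 92.9 and 82.2 CPM there, KRT8 31.0 and 37.7, ENO2 13.4 and 15.1, and SOX2 8.5 and 7.8. PAX2, a kidney factor, was under 1 CPM. Of 10 markers of blood, muscle, fibroblast and liver cells, 8 did not pass the count filter, CD3E and MYH7 were at 0 in every library, and the highest of the others was LUM with 0.55 to 1.11 CPM. Of the 10 genes known from 293T cells, 0 rose and 4 fell in the knockout, and 2 rose and 6 fell in the knockdown. Of all genes tested 10.3% rose and 12.1% fell in the knockout, and 22.2% rose and 25.3% fell in the knockdown. The deepest falls of the 10 in the knockout were those of KRT8 (-2.42 ± 0.17) and NEFM (-2.02 ± 0.16). In bulk RNA, fewer cells of a type and less RNA per cell cannot be told apart.

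Nearly all members were well expressed, with 60 of 78 above 50 CPM in both control libraries and 76 above an average log2 CPM of 2. Gene positions are given on hg38 as in the count tables, with their identifiers. To compare genes, levels were divided by the exon length of the count tables. In control cells the median member then stood at 26.9 CPM per kb of exon. MRPS34, a small subunit protein specific to mitochondria, was highest with 163 ± 4.25 CPM per kb (SD, n = 2), followed by MRPS26 with 155 ± 3.67 and MRPL51 with 142 ± 2.97. Each of these neighbours in the order differed by more than their summed SDs. MRPL37 had 108 ± 7.14 and MRPL41 had 102.9 ± 1.02 CPM per kb, both of the large subunit, which did not differ beyond their spread. At the other end stood MRPL53 with no read in control, MRPS24 with 0.53, MRPL38 with 1.03, MRPL46 with 1.70 and MRPS6 with 2.89 ± 0.12. MRPL53 had 1 count in knockout replicate 1 and 0 in the other 5 libraries, and was not tested.

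The members with the lowest counts were those that share exons with another gene on the same strand. The counting command in the file headers carries no option to assign a read to several genes, so a read over exons of 2 genes was left uncounted by default. For 9 members at least 30% of the principal transcript in GENCODE 29 lay inside exons of another gene. They were MRPL53 with 94.6% (overlapped by CCDC142), MRPS24 with 85.7% (by the readthrough gene URGCP-MRPS24), MRPL46 with 71.1%, MRPL12 with 68.2%, MRPL38 with 67.9%, MRPS28 with 55.4%, MRPL2 with 39.9%, MRPS17 with 31.6% and MRPS6 with 31.1%. Their control means ran from 0 to 12.7 CPM. The other 69 members ran from 18.6 CPM (MRPL45) and 30.9 CPM (the next) to 275 CPM (MRPL37), with a median of 82.7. The ranges did not overlap, but the 9 were set apart after seeing the data. Of the 69, 7 had no principal transcript and so no such overlap value. The values of these 9 genes cover only the reads that could be assigned. Of the 78 members, 36 have a pseudogene named after them, 79 in all, and reads of such pairs could be split or dropped at the mapping quality minimum of 10.

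**Figure D1:**
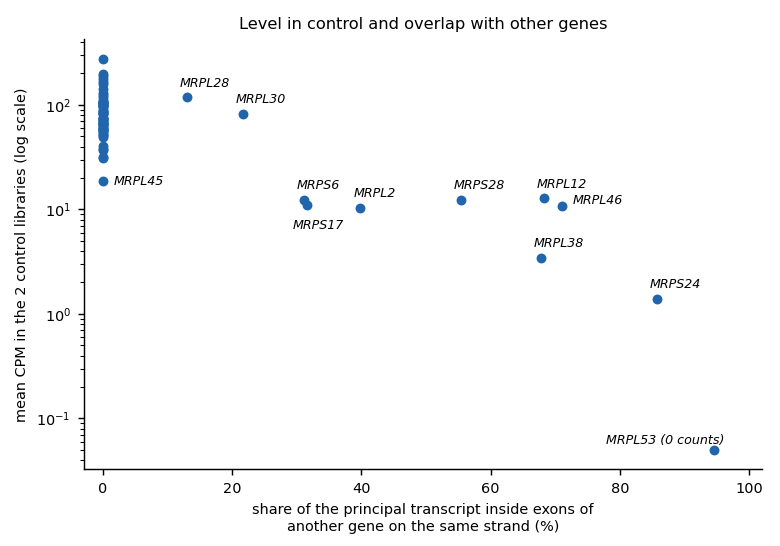
Mean CPM in the 2 control libraries (log scale) against the share of each member's principal transcript that lies inside exons of another gene on the same strand, 1 point per member with a principal transcript. The 9 members with 31.1% or more stand at or under 12.7 CPM, with MRPL53 drawn at the bottom for its 0 counts, while MRPL28 and MRPL30, with smaller overlaps, stand with the rest.

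In the MLL2 knockout the mitochondrial ribosomal protein genes were mostly somewhat higher than in control. Their summed level was 6335 and 6254 CPM in control and 7048 and 6824 CPM in the knockout, and 61 of the 77 tested members had a positive change. Of the 77, 17 rose, 1 fell and 59 were not called at an adjusted p under 0.05. That is 22.1% higher and 1.3% lower, against 10.3% of all genes tested called higher and 12.1% called lower, or 15% and 14.2% among the 11509 genes with an average log2 CPM above 2. The median change was 0.15 on the log2 scale against -0.01 over all genes tested. The count of members that rose depended on single libraries, and so did the count over all genes tested. Both counts fell when any 1 control or knockout library was left out, each time with a single library left in that group. Both grew when either knockdown library was left out. Without control replicate 1 the members' median was 0.16, and without control replicate 2 it was 0.11. Without knockout replicate 1 it was 0.12, and without knockout replicate 2 it was 0.18. The medians of all genes were then 0.00, 0.00, -0.02 and -0.03. In a fit without the knockdown 29 members rose, and 2668 of all 16575 genes tested did. The knockdown libraries, which share the estimate of spread, differed from each other by 0.161 (log2) at the median of expressed genes, against 0.104 in control and 0.0987 in the knockout.

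The largest called rises came from both subunits. Genes named for their change had to have libraries of the 2 compared groups that did not overlap. Such a separation therefore follows from the choice of genes and adds nothing to a call. In the small subunit, MRPS12 (chr19:38930548-38933162, ENSG00000128626.11), the counterpart of the bacterial decoding centre protein S12, had 50.8 and 56.0 CPM in control, 76.6 and 77.2 in the knockout, and 64.7 and 55.0 in the knockdown. Both knockout libraries lay above all 4 others, and its change in the knockout was 0.53 ± 0.10 (edgeR adjusted p = 7.9e-04). It was called higher in the knockdown too with library totals (0.28, edgeR adjusted p = 0.0238) and with the length correction described further on (0.40, edgeR adjusted p = 0.00117), under which the depletions did not differ by call (-0.13). MRPS7 (chr17:75261674-75266376, ENSG00000125445.11), the counterpart of S7 in the head of the small subunit, had 136 and 123 CPM in control, 177 and 179 in the knockout, and 144 and 119 in the knockdown. Its knockout libraries stood above the rest, with a change of 0.46 ± 0.09 (edgeR adjusted p = 0.00128), but without control replicate 2 it was not called (0.39). MRPS18C, which has 2 paralogues described further on, changed by 0.52 ± 0.12 (edgeR adjusted p = 0.00347), and was not called without control replicate 2 (0.48) or without knockout replicate 1 (0.37).

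Among the large subunit genes, MRPL19 (chr2:75646783-75690851, ENSG00000115364.14), the counterpart of bacterial L19, had 91.4 and 86.5 CPM in control, 131 and 123 in the knockout, and 124 and 111 in the knockdown. Both depletions lay above control, and the change in the knockout was 0.51 ± 0.09 (edgeR adjusted p = 2.9e-04). MRPL42, a protein specific to mitochondria, had 162 and 159 CPM in control, 209 and 216 in the knockout, and 223 and 200 in the knockdown, a change of 0.41 ± 0.08 in the knockout (edgeR adjusted p = 0.00126). MRPL19, MRPL42 and MRPS12 were called higher in the knockout whichever single library was left out. MRPL46, one of the overlapped genes, changed by 0.51 ± 0.16 from 10.6 and 11.2 CPM to 15.4 and 15.6 (edgeR adjusted p = 0.0286). Leaving out any 1 of the 4 libraries ended its call, with changes of 0.47 to 0.54.

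MRPL10 (chr17:47823272-47831541, ENSG00000159111.13), the counterpart of L10 at the base of the flexible stalk that recruits translation factors, was the 1 member called lower. It had 73.7 and 68.4 CPM in control, 59.1 and 49.3 in the knockout, and 72.3 and 60.5 in the knockdown. The knockout libraries were the 2 lowest, with a change of -0.39 ± 0.11 (edgeR adjusted p = 0.0139). Without control replicate 1 the change was -0.33 and without knockout replicate 2 it was -0.26, neither called. The 3 members on the long arm of chromosome 8 past 50 Mb, MRPL13, MRPL15 and MRPS28, were also below control, at -0.24, -0.25 and -0.30, and MRPL18, on chromosome 6 past 70 Mb, was at -0.11. None of these 4 was called (edgeR adjusted p = 0.0562 for MRPL15), though MRPL15 was called lower with the length correction (-0.25, edgeR adjusted p = 0.0296). It was called lower in other settings too, among them library totals (-0.25, edgeR adjusted p = 0.0393). Upper quartile scaling called MRPL15 (-0.28, edgeR adjusted p = 0.0265) and MRPL13 (-0.27, edgeR adjusted p = 0.0498) lower. RLE scaling and DESeq2 each called 1 member lower in all.

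By subunit, 13 of 50 tested large subunit genes rose and 1 fell (median 0.15), and 4 of 26 small subunit genes rose and 0 fell (median 0.11). Of the 45 genes with a bacterial counterpart, 11 rose and 1 fell (median 0.20), and of 31 tested genes specific to mitochondria or far diverged, 6 rose and 0 fell (median 0.09). The differences between these groups were not tested. The length correction changed little in this comparison. After a correction for length in every library the same 17 members rose, with 20 in all, 2 fell, and the median stayed at 0.15. These were 26% and 2.6% of the members, beside 11.8% of all genes tested higher and 12.9% lower. Of the genes with an average log2 CPM above 2, 17.1% were then higher and 15.2% lower.

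**Figure D2:**
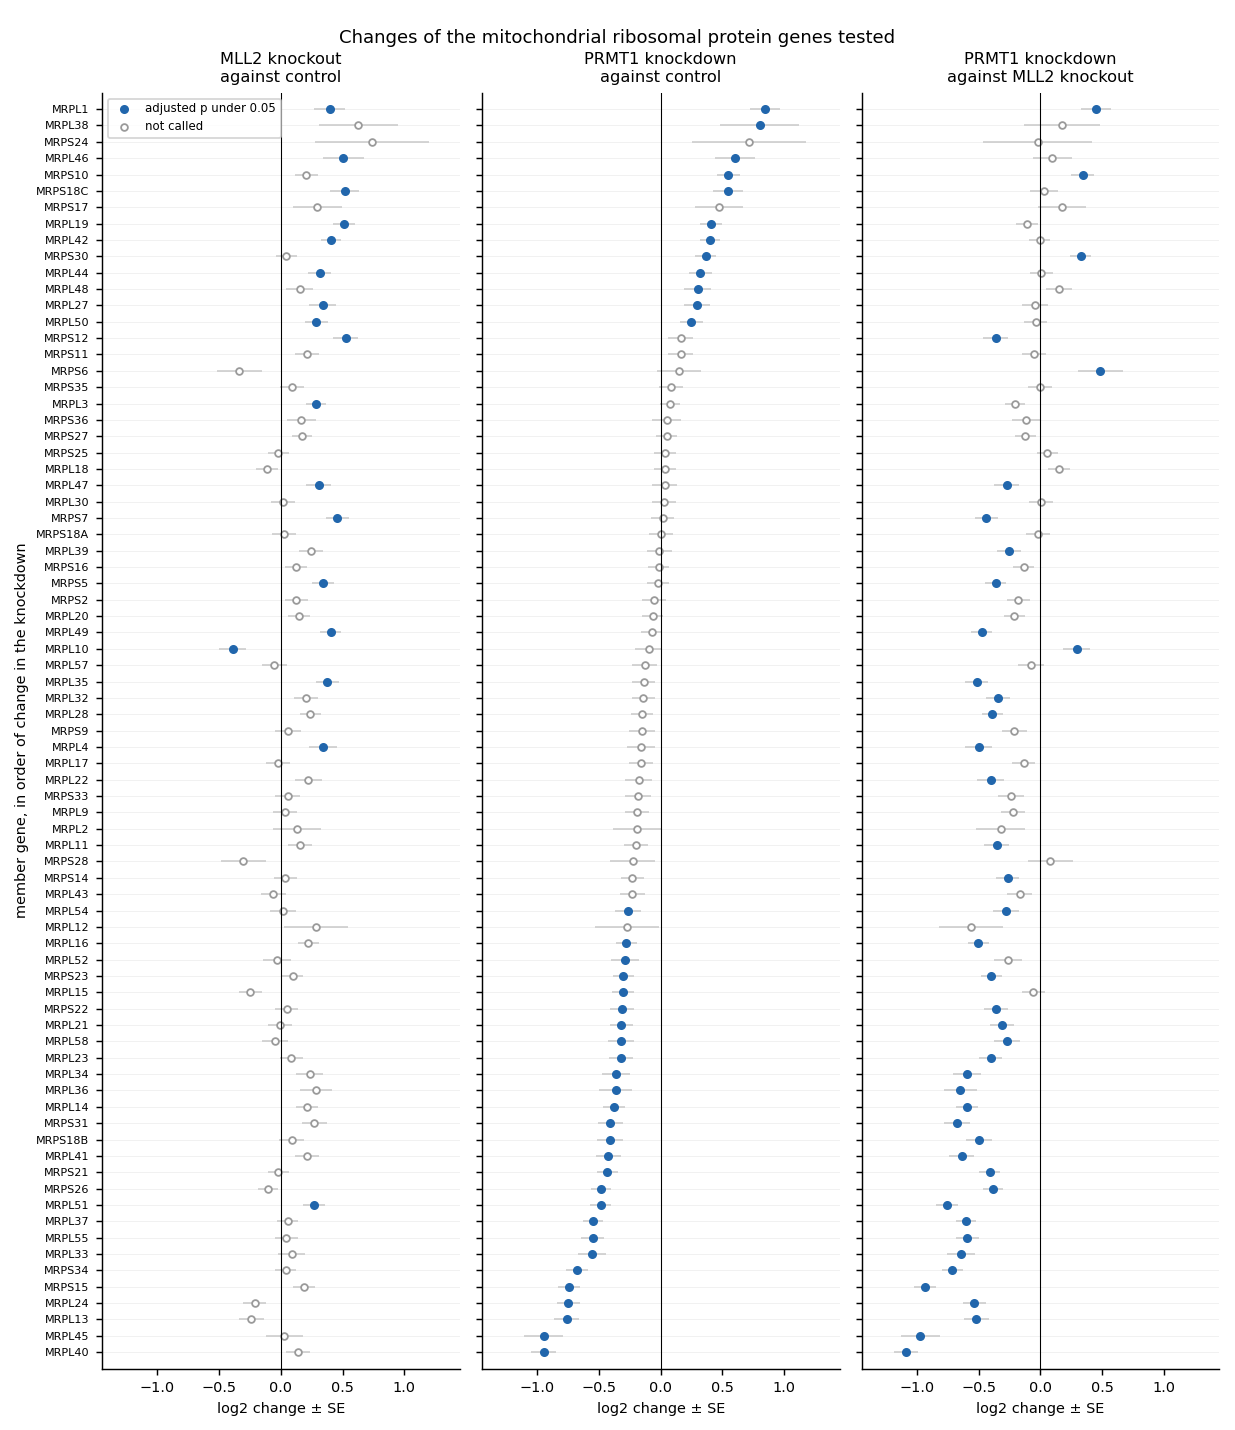
Log2 change of the 77 tested members in the 3 comparisons, each point with its standard error, filled where the adjusted p was under 0.05 and ordered by the change in the knockdown. Most points lie right of 0 in the knockout, with MRPL10 the 1 member called lower, while the knockdown spreads from -0.95 (MRPL40 and MRPL45) to 0.85 (MRPL1).

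In the PRMT1 knockdown some of the genes rose and more of them fell. Of the 77 tested members 12 rose, 27 fell and 38 were not called, and the changes ran from -0.95 to 0.85 with a median of -0.15, against -0.04 over all genes tested. That is 15.6% higher and 35.1% lower, beside 22.2% and 25.3% of all genes tested, or 28.9% and 31.7% of the genes with an average log2 CPM above 2. The share that fell was thus near that of other expressed genes, and the share that rose was below it. Summed levels were 6054 CPM in knockdown replicate 1 and 5348 in replicate 2, and 71 of 77 members were lower in replicate 2 than in replicate 1, with a median difference of -0.19 (control -0.03, knockout -0.04). Without knockdown replicate 1 the median change was -0.25, and without replicate 2 it was -0.05. Relative to the median of all genes these were -0.20 and 0.01. Scaling by library totals alone moved the median of all genes from -0.04 to 0.08. Under it 16 members rose and 17 fell, and the members' median relative to that of all genes was -0.12, as with TMM scaling.

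The deepest falls were in the large subunit. MRPL40 (chr22:19431902-19436075, ENSG00000185608.8), a large subunit protein specific to mitochondria, had 99.1 and 92.7 CPM in control, 107 and 104 in the knockout, and 54.4 and 45.1 in the knockdown. The knockdown libraries were far below the other 4, with a change of -0.95 ± 0.10 (edgeR adjusted p = 1.2e-07). MRPL45 (chr17:38297023-38323217, ENSG00000278845.5), which lies at the exit of the peptide tunnel next to the inner membrane, had 18.9 and 18.3 CPM in control, 17.8 and 20.2 in the knockout, and 9.58 and 9.70 in the knockdown. It changed by -0.95 ± 0.16 (edgeR adjusted p = 4.4e-05). That the knockdown did not overlap the other groups was required by the rule for naming genes. MRPL13, the counterpart of L13, had 101 and 95.5 CPM in control, 81.0 and 85.1 in the knockout, and 64.2 and 51.6 in the knockdown, a change of -0.76 ± 0.10 in the knockdown (edgeR adjusted p = 3.1e-06). MRPL24, the counterpart of the early binding protein L24, had 98.7 and 97.6 CPM in control, 85.1 and 84.3 in the knockout, and 62.2 and 54.6 in the knockdown. It changed by -0.75 ± 0.09 (edgeR adjusted p = 1.1e-06), and for both genes all 4 depletion libraries lay below control.

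In the small subunit, MRPS15 (chr1:36455718-36464384, ENSG00000116898.12), the counterpart of the rRNA binding protein S15, had 99.3 and 105 CPM in control, 121 and 111 in the knockout, and 61.6 and 60.3 in the knockdown. Its change was -0.75 ± 0.09 (edgeR adjusted p = 7.4e-07), and the 3 groups did not overlap. Its rise in the knockout was not called in the fit of all libraries. A fit without the knockdown libraries called that rise (0.19, edgeR adjusted p = 0.0323). MRPS34, the member with the highest control level per kb of exon, had 175 and 182 CPM in control. It had 179 and 187 in the knockout and 119 and 104 in the knockdown, a change of -0.68 ± 0.09 (edgeR adjusted p = 1.9e-06). Control and knockout libraries interleaved for MRPS34, and the knockdown libraries stood apart from both. The other 4 members of highest level per kb also fell: MRPS26 by 0.48, MRPL51 by 0.49, MRPL37 by 0.55 and MRPL41 by 0.43 on the log2 scale. By CPM the order was another. MRPL37, with 262 and 288 CPM in control, and MRPL51, with 200 and 194, stood above MRPL3, and both fell. MRPL3, with 190 and 191 CPM in control, was not called (0.08). MRPL42, below MRPS34 with 162 and 159 CPM in control, was called higher (0.40). MRPL40, MRPL45, MRPL13, MRPL24, MRPS15 and MRPS34 were called lower whichever single library was left out.

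Of the genes that rose in the knockdown, MRPL1 (chr4:77862830-77952785, ENSG00000169288.18), the counterpart of L1 on the mobile stalk through which tRNA leaves, changed most. It had 33.1 and 28.7 CPM in control, 40.7 and 40.7 in the knockout, and 63.0 and 48.2 in the knockdown, a change of 0.85 ± 0.13 (edgeR adjusted p = 1.1e-05). The groups formed 3 separate steps, with the knockout between control and knockdown. The rise of MRPL1 in the knockout was called (0.40 ± 0.13, edgeR adjusted p = 0.028). It was not called without control replicate 2 (0.30), knockout replicate 1 (0.40) or knockout replicate 2 (0.40). MRPS10 (chr6:42206807-42217861, ENSG00000048544.6), the counterpart of S10, had 58.3 and 60.0 CPM in control, 69.3 and 67.3 in the knockout, and 92.8 and 80.3 in the knockdown, a change of 0.55 ± 0.10 (edgeR adjusted p = 7.5e-05). It showed the same order of the 3 groups, but its rise in the knockout was not called in the fit of all libraries. A fit without the knockdown libraries called that rise (0.21, edgeR adjusted p = 0.0452). MRPL19 changed by 0.41 ± 0.09 (edgeR adjusted p = 7.2e-04) and MRPL46 by 0.60 ± 0.16 (edgeR adjusted p = 0.00407). MRPL38 changed by 0.80 ± 0.32, from 3.39 and 3.49 CPM in control to 5.13 and 6.89 in the knockdown (edgeR adjusted p = 0.0446), and was not called without control replicate 1 (0.78), control replicate 2 (0.82) or knockdown replicate 2 (0.57).

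MRPL51 (chr12:6491886-6493841, ENSG00000111639.8), a large subunit protein specific to mitochondria, was the 1 member called in opposite directions in the 2 depletions. It had 200 and 194 CPM in control, 246 and 229 in the knockout, and 151 and 131 in the knockdown. The change was 0.27 ± 0.09 in the knockout (edgeR adjusted p = 0.029) and -0.49 ± 0.09 in the knockdown (edgeR adjusted p = 1.0e-04), both against the same control libraries. The call in the knockout was lost without any 1 of the 4 libraries (0.22 to 0.33). The directly compared knockdown and knockout differed by -0.76 ± 0.09 (edgeR adjusted p = 7.1e-07).

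**Figure D3:**
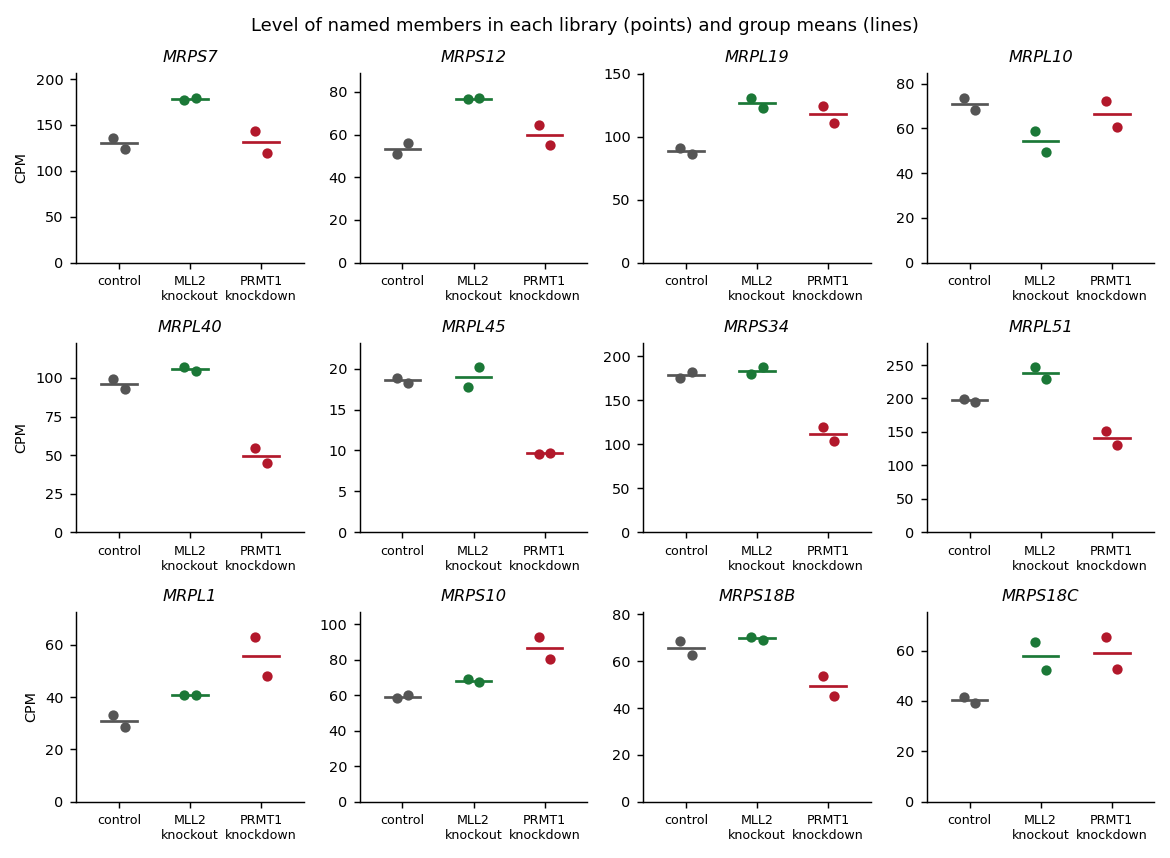
CPM of 12 members in each of the 6 libraries (points) with group means (lines), each panel starting at 0. In CPM, MRPS7 and MRPS12 are highest in the knockout, MRPL40, MRPL45 and MRPS34 are lowest in the knockdown, and MRPL1 and MRPS10 step up from control over knockout to knockdown. The rise of MRPS10 in the knockout was not called in the fit of all libraries.

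The 3 paralogues of bacterial S18 took 3 courses. MRPS18A, in the large subunit, had 65.2 and 60.5 CPM in control, 63.3 and 64.3 in the knockout, and 66.5 and 59.4 in the knockdown, with changes of 0.02 ± 0.10 and 0.00 ± 0.10, neither called. MRPS18B had 68.8 and 62.5 CPM in control, 70.4 and 69.2 in the knockout, and 53.7 and 45.1 in the knockdown. It changed by -0.41 ± 0.10 in the knockdown (edgeR adjusted p = 0.00249), and by -0.35, not called, without control replicate 1. MRPS18C had 41.6 and 39.2 CPM in control, 63.4 and 52.2 in the knockout, and 65.4 and 52.7 in the knockdown, and it rose in both depletions (0.52 ± 0.12 and 0.55 ± 0.12), which differed from each other by 0.03 ± 0.12. The length correction moved 2 of the 3 genes: with it MRPS18A changed by 0.30 in the knockdown (edgeR adjusted p = 0.00945) and MRPS18B by -0.15 (edgeR adjusted p = 0.196), while MRPS18C stayed at 0.57.

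Length of the genes moved with the result in the knockdown. The exons of a tested member span 2549 nt at the median (582 to 16394 nt over all members), against 4455 nt over all genes tested and 5371 nt over those with an average log2 CPM above 2. Among the 29 tested members under 2000 nt, 2 rose and 17 fell with a median of -0.32. Of the 31 members of 2000 nt up to 4000 nt 5 rose and 7 fell (median -0.13), and of the 17 members of 4000 nt or more 5 rose and 3 fell (median 0.04). All expressed genes showed the same order, with medians of -0.39 over 959 genes, -0.15 over 2762 and 0.07 over 7788 in these classes. Of these expressed genes 13.3%, 19.7% and 34% rose and 49.8%, 38.5% and 27% fell, in the same order of classes. Of the members 6.9%, 16.1% and 29.4% rose and 58.6%, 22.6% and 17.6% fell, and the differences within a class were not tested. Across the 77 members the change in the knockdown went with exon length (Pearson r = 0.368, Spearman rho = 0.393) and against GC content (r = -0.336, rho = -0.407). These are descriptions across genes measured in the same libraries, and genes are not independent replicates.

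A correction for the length trend in each library changed the picture of the knockdown. It did not remove the trend fully: all expressed genes under 2000 nt kept a median of -0.10, with 24% higher and 33% lower. With the correction 20 members rose and 12 fell, where 12 and 27 had. These were 26% and 15.6% of the members, beside 24% and 24.3% of all genes tested. Of the genes with an average log2 CPM above 2, 30% rose and 30.7% fell with the correction. The median of the members turned from -0.15 to 0.03. Of the 27 members called lower, 12 were still called lower, and of the 12 called higher 11 were still called higher. The rank correlation with exon length was then 0.080, but the correction was fitted to this same length, so a small value largely follows from it. With GC content, which was not fitted, the rank correlation was -0.269 after the correction (-0.407 before). With the length of the principal transcript it was 0.208 over 70 members (0.354 before). MRPL40 (-0.70), MRPL45 (-0.68), MRPL13 (-0.69), MRPL24 (-0.48), MRPS15 (-0.57) and MRPS34 (-0.37) were called lower with the correction too. MRPS26 (-0.17), MRPL41 (-0.11), MRPS31 (-0.17) and MRPS18B were not. MRPL1 rose further, to 1.11, and MRPS10 to 0.78. The knockdown libraries also differed from each other with length: replicate 2 minus replicate 1 was -0.18 (log2) at the median of all expressed genes under 2000 nt and 0.01 at 4000 nt or more. Members were lower in replicate 2 in every class, with medians of -0.21, -0.19 and -0.18 from the shortest to the longest. Whether the length trend comes from the cells or from the libraries was not tested.

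**Figure D4:**
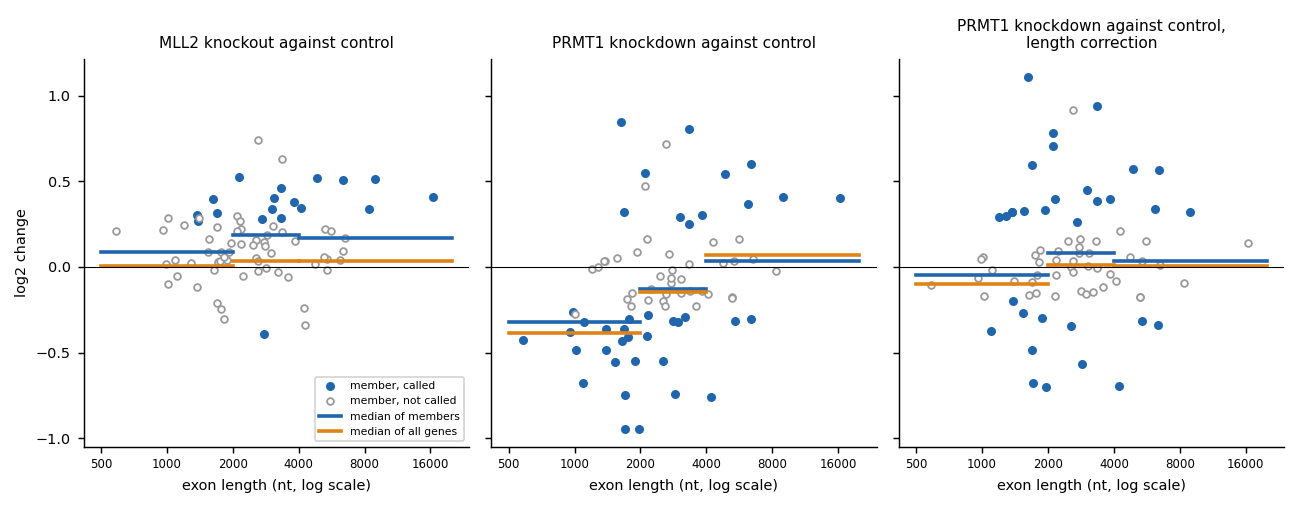
Log2 change of the tested members against exon length (log scale), with lines for the median of the members and of all genes with an average log2 CPM above 2 in 3 length classes. In the knockdown both lines rise with length, from -0.32 and -0.39 to 0.04 and 0.07, and after the correction they lie near 0, while in the knockout the members' line lies above that of all genes in each class.

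Setting the depletions against each other, without the control libraries in the contrast, 5 members were higher and 38 lower in the knockdown than in the knockout, with a median of -0.26 (all genes 0.01). That is 49.4% lower and 6.49% higher, beside 21.4% and 19.4% of all genes tested, or 29.3% and 24.2% of those with an average log2 CPM above 2. With the length correction 9 were higher and 28 lower, and the median was -0.09. These were 11.7% and 36.4% of the members, beside 20.7% and 20.6% of all genes tested. Of the genes with an average log2 CPM above 2, 24.7% were then higher and 28.6% lower. MRPL40 (-1.09 ± 0.10), MRPL45 (-0.98 ± 0.16), MRPS15 (-0.93 ± 0.09), MRPL51, MRPS34 (-0.71 ± 0.09) and MRPS31 (-0.68 ± 0.10) were furthest below the knockout. MRPS31, a small subunit protein specific to mitochondria, had 55.1 and 58.2 CPM in control, 73.1 and 63.5 in the knockout, and 43.8 and 41.7 in the knockdown. Its groups did not overlap, and its rise in the knockout was not called (0.27, edgeR adjusted p = 0.0603).

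The 5 members above the knockout were MRPS6 (0.48 ± 0.18), MRPL1 (0.45 ± 0.12), MRPS10 (0.34 ± 0.10), MRPS30 (0.32 ± 0.08) and MRPL10 (0.29 ± 0.11). MRPS30, a large subunit protein, had 89.1 and 87.2 CPM in control, 91.7 and 89.9 in the knockout, and 117 and 111 in the knockdown. Without knockdown replicate 1, MRPL1 was at 0.24, MRPS10 at 0.23, MRPS6 at 0.27 and MRPL10 at 0.15, none of them called. MRPS6 also lost its call without any 1 of the control or knockout libraries (0.41 to 0.54) and with DESeq2 (0.50, adjusted p = 0.0612). MRPL10 lost it without either control library (0.28 each) and without knockout replicate 2 (0.16). MRPS30 was not called without knockout replicate 1 (0.33) or replicate 2 (0.30). MRPS10 was not called without knockout replicate 2 (0.31), and MRPL10 lost its call when a control library was left out too (0.28).

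The motifs of the promoter windows were set beside the changes. Of 29 tested members with ETS letters in a window 5 rose and 13 fell in the knockdown (median -0.18), and of 39 without them 7 rose and 10 fell (median -0.13). Of 13 members with the YY1 letters 6 rose and 3 fell (median 0.25), against 6 and 20 of 55 without them (median -0.16). Over all genes tested 22.2% rose and 25.3% fell. The 6 that rose were MRPL38, MRPL42, MRPL46, MRPL50, MRPS10 and MRPS30, and the 3 that fell were MRPL36, MRPL52 and MRPS18B. MRPL38 and MRPL46 are overlapped members with low counts. MRPL36, MRPL50 and MRPL52 are named after their values were seen. With the length correction MRPL36 (-0.08), MRPL52 (-0.15), MRPS18B (-0.15) and MRPL42 (0.14) were not called. Members with the YY1 letters were also longer (median 3336 against 2233 nt), and with the length correction the medians were 0.30 and 0.03. The transcript of YY1 itself, named after its values were seen, went from 117 and 114 CPM in control to 167 and 193 in the knockdown (0.65 ± 0.09, edgeR adjusted p = 3.9e-06). That of GABPA, of the ETS family, rose too (0.36 ± 0.10, edgeR adjusted p = 0.00404), where more members with ETS letters fell than rose. Whether either factor acts on these members was not tested. The difference between members with and without the letters was not tested.

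Several members share a promoter region with a gene on the other strand. For MRPL46 and MRPS11, whose starts are 63 nt apart, MRPL46 rose in both depletions, while MRPS11, with 63.5 and 70.2 CPM in control, 75.6 and 79.1 in the knockout, and 80.3 and 69.3 in the knockdown, was not called in either (0.21 ± 0.10 and 0.16 ± 0.10). MRPL27, a large subunit protein, lies 13 nt from EME1, a subunit of a DNA endonuclease. MRPL27 had 57.6 and 61.9 CPM in control, 74.9 and 76.0 in the knockout, and 82.5 and 64.1 in the knockdown, and was called higher in both (0.34 ± 0.11 and 0.29 ± 0.11). EME1 had 76.2 and 75.6 CPM in control, 57.3 and 52.0 in the knockout, and 32.3 and 32.0 in the knockdown, and fell in both (-0.47 ± 0.10 and -1.24 ± 0.10). MRPL36 and NDUFS6, a subunit of respiratory complex I 41 nt away, both fell in the knockdown, by 0.36 and by 1.09 on the log2 scale. With the length correction MRPL36 was not called (-0.08). These neighbours were picked by distance, at most 500 nt, and the ones named here were chosen with their values known.

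The partners of the mitoribosome moved in their own ways. Of 5 mitoribosomal proteins with other names (DAP3, PTCD3, CHCHD1, AURKAIP1 and GADD45GIP1), 0 were called in the knockout, where GADD45GIP1 had 0.30 (adjusted p = 0.0512), and AURKAIP1 alone was called in the knockdown (-0.30 ± 0.10). With the length correction AURKAIP1 was at -0.03 in the knockdown and not called, and GADD45GIP1 was called higher in the knockout (0.30, edgeR adjusted p = 0.0315). The counts of this and the lists that follow stand beside 10.3% of all genes higher and 12.1% lower in the knockout, and 22.2% and 25.3% in the knockdown. Of 29 tested assembly factors 7 rose and 2 fell in the knockout (median 0.17), and 10 rose and 4 fell in the knockdown (median 0.16). NSUN4, which methylates the small subunit RNA and helps join the subunits, had 34.8 and 33.6 CPM in control, 39.7 and 43.3 in the knockout, and 83.8 and 88.9 in the knockdown, a change of 1.34 ± 0.10 (edgeR adjusted p = 1.3e-09). NOA1, a GTPase of small subunit assembly, changed by -0.33 ± 0.10 and -0.83 ± 0.10, and TFB1M, which dimethylates the small subunit RNA, by -0.72 ± 0.11 and -0.46 ± 0.10 (knockout and knockdown). FASTKD2, an RNA binding protein of large subunit assembly, rose by 0.58 ± 0.10 and 0.28 ± 0.10, and NGRN rose in the knockdown (0.90 ± 0.10).

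Of 15 tested genes for the replication, transcription and processing of mitochondrial DNA and its RNA, 9 rose and 0 fell in the knockout (median 0.41), and 9 rose and 0 fell in the knockdown (median 0.40). They share the control libraries, so the 2 counts are not independent. FASTKD5, which processes mitochondrial transcripts, had 39.1 and 41.1 CPM in control, 59.9 and 70.7 in the knockout, and 73.1 and 69.6 in the knockdown. Both depletions stood above control, by 0.70 ± 0.10 and 0.83 ± 0.10. TWNK, the mitochondrial helicase, rose by 0.60 ± 0.10 and 0.79 ± 0.10. Of 16 translation factors 2 rose and 1 fell in the knockout and 6 rose and 5 fell in the knockdown. MTRF1L, a release factor, rose in the knockdown by 0.89 ± 0.11 and GUF1, a back-translocase, by 0.75 ± 0.10.

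Of the 13 messenger RNAs of mitochondrial DNA, 1 fell in each depletion and 0 rose. MT-CO1 had 449.9 and 378 CPM in control and 315 and 329.6 in the knockout (-0.36 ± 0.09), and MT-CO3 had 709 and 662 in control and 416 and 389 in the knockdown (-0.77 ± 0.08). With the length correction 3 rose in the knockdown (MT-ND2, MT-ND4L and MT-CO1), the median there went from -0.01 to 0.30, and MT-CO3 was at -0.45. MT-CO2 was at 36.2 to 47.5 CPM, and the other 10 were at or under 20.6 CPM in every library. MT-RNR2, the RNA of the large subunit, was at 9.38 and 9.55 CPM in control and 15.2 and 17.8 in the knockdown (0.80 ± 0.17). The kit named in the labels removes ribosomal RNA, so this value is what was left after removal. Of 9 regulators of mitochondrial biogenesis, 1 rose and 1 fell in the knockout, and 4 rose and 2 fell in the knockdown. MYC, which drives many genes of ribosome production, had 197 and 209 CPM in control, 127 and 123 in the knockout, and 62.3 and 63.5 in the knockdown, falling in both. PPRC1, a coactivator of NRF1, rose in both (0.43 ± 0.14 and 1.22 ± 0.14), GABPA rose in the knockdown and was not called in the knockout, and ESRRA fell there (-0.84 ± 0.10).

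**Figure D5:**
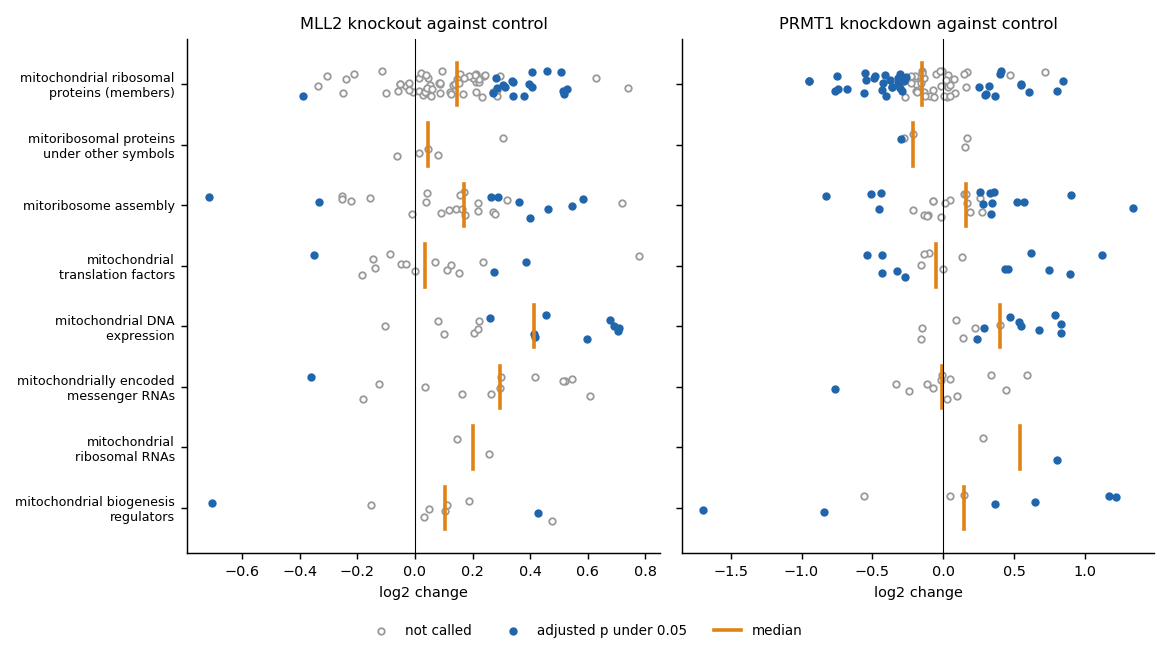
Log2 change of the members and of 7 lists of related genes in each depletion, 1 point per tested gene, filled where the adjusted p was under 0.05, with the median of each list as a line. The points of mitochondrial DNA expression lie mostly right of 0 in both panels, with medians of 0.41 and 0.40, while the members' median is 0.15 in the knockout and -0.15 in the knockdown.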

How the data were processed

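Total RNA of 6 libraries of 293T cells was extracted with TRIzol and made into stranded libraries, per the labels' protocols. The authors deposited a table of raw counts per gene for each library, made with featureCounts. Per the submitters' processing notes, FastQC 0.11.4, Trim Galore 0.6.10, STAR 2.7.5a, featureCounts 1.5.0-p1 and DESeq2 1.36.0 were used with hg38. Per the file headers, the counting used featureCounts 2.0.1, GENCODE 34, a mapping quality minimum of 10 and strand setting 2, so the 2 sources differ in the version. Symbols were available for 60370 of 60669 genes, and GC content and biotype came from GENCODE 29.

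Genes were kept by filterByExpr and libraries scaled by TMM. All 6 libraries were fitted together, with 1 term for each group and 3 residual degrees of freedom, by edgeR 4.0.16 (glmQLFit, glmQLFTest) in R 4.3.3. P-values were adjusted by Benjamini-Hochberg over all 17575 genes, and calls used an adjusted p under 0.05. Standard errors are the log2 change divided by the root of the F statistic. The length correction fitted a spline with 5 degrees of freedom to each library over 11509 genes. Alternatives were other scalings, filters and fits, DESeq2 1.42.0, GC content and leaving out each library. Named members were the 6 largest changes per direction and comparison with libraries that did not overlap, the 5 highest and lowest levels, the S18 paralogues, members on stretches of chromosomes 6 and 8, and those called in opposite directions or failing the filter. Of other lists, up to 3 genes per depletion with the smallest adjusted p were eligible, and exceptions are marked in the text. The members and lists were chosen with earlier results of these data known. With 2 libraries per group, small changes may go undetected.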

Additional observations from a re-analysis of the deposited data

How the results depend on the processing

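Where 1 library was left in a group, the fit pooled the spread and assumed that it varies like the other groups. The counts called over all genes moved with the setting as well. Leaving out libraries, the knockout count of members that rose ran from 5 to 28, that of those that fell from 0 to 4, the median from 0.11 to 0.18 and the called genes of the pathway lists, 24 in the full fit, from 11 to 36. In the knockdown the median ran from -0.249 to -0.0455, and in the knockdown against the knockout the count higher ran from 1 to 6 and the median from -0.37 to -0.16. Members that fell in the knockout numbered 3 with upper quartile scaling (median 0.11), 2 with library totals, 2 with an average log2 CPM above 0, 2 among protein-coding genes, 4 with the groups alone (29 rose), 2 with the length correction and 3 with GC and length. In the knockdown 17 fell with library totals (median -0.0391), 12 with length (20 rose, median reversed to 0.0339) and 16 with GC and length (17 rose, median 0.0464). Upper quartile scaling gave 9 that rose and 30 that fell. Against the knockout, library totals gave a median of -0.15, the groups alone 3 higher, length 9 higher (median -0.0892) and GC and length 9 higher (median -0.0747). DESeq2 called 19 higher and 1 lower in the knockout, 11 and 24 in the knockdown, and 4 and 33 between them. Leaving out the 9 overlapped members, chosen after seeing the data, gave 16 and 1, 10 and 27, and 4 and 38. Deviations of the first replicates from their group means correlated by 0.0624 (control and knockout), 0.044 (control and knockdown) and 0.196 (knockout and knockdown). Whether the replicate numbers pair the samples was not tested. With the replicate number as a block the counts of members were 20 and 2, 13 and 29, and 5 and 43. Over all genes they were 2139 and 2373, 4095 and 4615, and 3587 and 3942. Without the block those of all genes were 1817 and 2124, 3899 and 4439, and 3401 and 3753. With the replicate block and length they were 22 and 4, 20 and 12 (median 0.0322), and 12 and 31 (median -0.0788). Single members reversed in 5 cases: MRPL41 in the knockdown with GC and length (0.0531), MRPS18A against the knockout with length (0.28), GC and length (0.30) and the block with length (0.28), and MRPL15 there with the block and length (0.21). Sign changes of members called in neither fit were not counted. Of the other values of named members, 968 kept their side of the threshold, 42 gained a call and 29 lost it, and on leaving out a library 471 kept it, 14 gained and 37 lost it.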
